A study of Homo sapiens with 6 samples.

Results

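hsa-miR-199a-3p and hsa-miR-199b-3p were the 2 rows, of 413 miRNAs with deposited values, whose names belong to the miR-199a, miR-199b or miR-214 hairpins. They were followed in MDA-MB-231 cells, a mesenchymal-like line of triple-negative breast cancer that is established in culture. Both rows were selected on their rise in these same libraries, the largest among the 327 miRNAs that passed a filter on low values, so their difference between the groups is a description and carries no test. The other arms of these hairpins, hsa-miR-199a-5p, hsa-miR-199b-5p, hsa-miR-214-3p and hsa-miR-214-5p, were not analysed here. Small RNA was sequenced from 3 vehicle-treated libraries and 3 libraries of cells treated with 2 µM Withaferin A (WA), a steroidal lactone of Withania somnifera, for 24 h. The study names DMSO as the vehicle, while the sample labels describe these control cells as not treated. All 6 libraries come from 1 cell line, and the study calls the replicates of a group independent.

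A microRNA is cut from a hairpin precursor, and the arm that is kept guides the silencing complex to messenger RNAs that pair with its seed, bases 2 to 8 from the 5′ end. The miR-199 hairpins lie on the strand opposite to the dynamin genes, and the copy in DNM3 shares the noncoding transcript DNM3OS with miR-214. The miR-199 and miR-214 miRNAs are known for high levels in fibroblasts, smooth muscle and other mesenchymal cells. miR-199a-3p is known to repress MET, the receptor of hepatocyte growth factor, and the growth kinase MTOR.

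The mature sequences are shown because they decide what the 2 rows can tell apart. In the RefSeq table for GRCh38.p14 both names carry the same 22 bases, printed here with the seed in capitals.
hsa-miR-199a-3p: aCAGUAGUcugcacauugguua
hsa-miR-199b-3p: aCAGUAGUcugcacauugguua
A read of this mature sequence therefore matches both names equally. These bases occur in 3 of the 1562 hairpins that RefSeq lists, 2 of them annotated for miR-199a-3p and 1 for miR-199b-3p. Besides this pair, hsa-miR-3129-5p carries the same seed in that table, and it was not analysed here.

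The 3 hairpins are printed 5′ to 3′ with the miR-199-3p arm in capitals, to show how far their shared sequence reaches.
MIR199A1: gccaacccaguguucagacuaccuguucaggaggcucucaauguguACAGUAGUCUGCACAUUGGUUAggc
MIR199A2: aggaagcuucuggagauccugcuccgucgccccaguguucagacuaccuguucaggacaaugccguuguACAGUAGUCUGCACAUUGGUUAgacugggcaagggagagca
MIR199B: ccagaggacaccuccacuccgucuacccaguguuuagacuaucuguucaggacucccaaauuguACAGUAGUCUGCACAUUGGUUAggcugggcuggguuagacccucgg
All 3 agree over an unbroken 26 bases, which add 3 bases before the mature sequence and 1 base after it. MIR199A1 and MIR199B agree over 28 bases, with 3 shared bases after the mature sequence. A miR-199-3p read with a longer 3′ end can thus fit MIR199A1 and MIR199B without fitting MIR199A2.

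MIR199A1 (ENSG00000207752) lies on the minus strand at chr19:10817426-10817496 in GRCh38. It is antisense to introns of DNM2 (ENSG00000079805), where 8 annotated transcripts span it and 0 of their exons overlap it. MIR199A2 (ENSG00000208024) lies on the minus strand at chr1:172144535-172144644. It is antisense to introns of DNM3 (ENSG00000197959), with 7 transcripts over it and 0 exons, and on the sense strand it overlaps 4 annotated exons of DNM3OS (ENSG00000230630). MIR214 (ENSG00000283844), at chr1:172138798-172138907, follows on the same strand after a gap of 5627 bases. MIR199B (ENSG00000207581) lies on the minus strand at chr9:128244721-128244830, antisense to introns of DNM1 (ENSG00000106976), where 16 transcripts span it and 0 exons overlap it. The 3 copies thus sit on 3 chromosomes in the same arrangement, each inside a different dynamin gene.

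**Figure D1:**
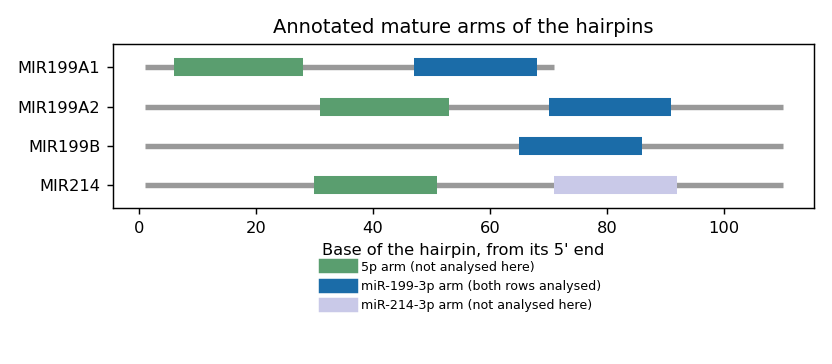
Positions of the annotated mature arms along the hairpins of MIR199A1, MIR199A2, MIR199B and MIR214, in bases from the 5′ end of each hairpin, where the RefSeq table gives the arm. The miR-199-3p arm of 22 bases lies towards the 3′ end in each of the 3 miR-199 hairpins.

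Library depth differed within both groups, from 710878 to 4778066 miRNA reads in the vehicle libraries and from 156442 to 2232934 in the WA libraries. WA replicate 3 stood apart from the rest of its group, with correlations across miRNAs on the log2 scale of 0.630 and 0.641 with WA replicates 1 and 2 and from 0.772 to 0.797 with the vehicle libraries. Vehicle replicate 1 also lay apart, at 0.785 and 0.792 with vehicle replicates 2 and 3, which had a correlation of 0.987 with each other. In the deposited values, called normalized values here, the reads of each miRNA were taken to be divided by a size factor of the library. Within a library all values were multiples of 1 step, whose inverse was the median-of-ratios size factor of those multiples. The multiples are given as reads, on the assumption that 1 step is 1 read, and as CPM, which are reads scaled to a common library total.

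In vehicle-treated cells both rows had few reads. hsa-miR-199a-3p was listed with normalized values of 0, 8.28 and 3.97 across vehicle replicates 1 to 3. These came from 0, 29 and 13 reads, or 0, 6.07 and 3.10 CPM. hsa-miR-199b-3p had normalized values of 0, 4.28 and 2.14 from 0, 15 and 7 reads. With 710878 reads in vehicle replicate 1, a count of 0 allows up to 3 reads, or 4.22 CPM, which is above the level of either row in vehicle replicate 3. Vehicle replicate 1 was therefore not distinguishable from replicate 3 at this depth.

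In WA-treated cells hsa-miR-199a-3p had normalized values of 3670, 4499 and 66.1 in replicates 1 to 3. These came from 633, 2518 and 88 reads, or 4046, 4458 and 39.4 CPM. hsa-miR-199b-3p had normalized values of 1791, 2226 and 33.1 from 309, 1246 and 44 reads, or 1975, 2206 and 19.7 CPM. Every WA library lay above every vehicle library in both rows, with replicates 1 and 2 close together and replicate 3 between them and the vehicle libraries. Such a separation was seen in 25 of the 327 miRNAs that passed the filter (7.65%), and it is read here only as a description because the rows were chosen for it.

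**Figure D2:**
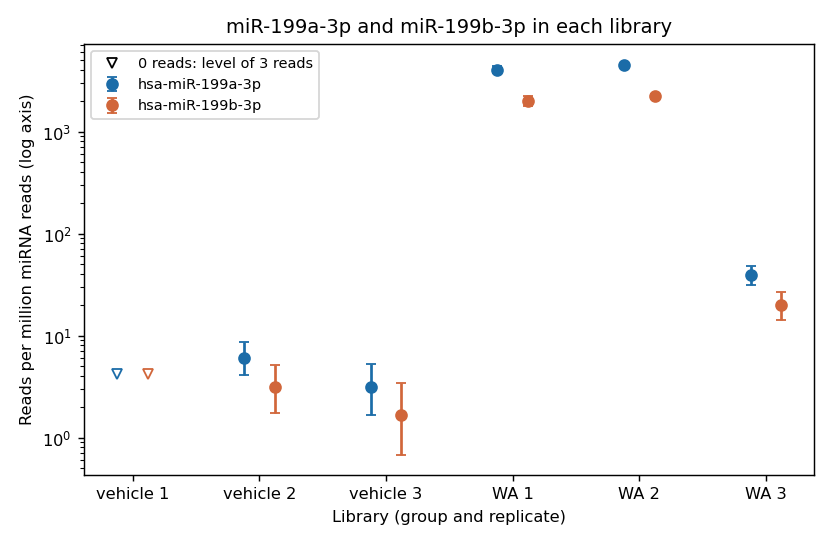
CPM of hsa-miR-199a-3p and hsa-miR-199b-3p in each library on a log axis, with exact Poisson 95% intervals as bars, which cover counting error only. Open triangles mark vehicle replicate 1, with 0 reads, at the level of 3 reads, and WA replicate 3 at 39.4 and 19.7 lies between the vehicle libraries and the other WA libraries.

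The step from WA replicate 3 to the other WA libraries was larger than the step from the vehicle libraries to WA replicate 3. For hsa-miR-199a-3p, CPM in WA replicate 2 were 113-fold those in WA replicate 3 (exact 95% interval 91.4 to 142), and on the normalized values the ratio was 68.0. WA replicate 3 was in turn 6.49-fold above vehicle replicate 2, the highest of its group (exact 95% interval 4.22 to 10.3), or 7.98-fold on the normalized values. WA replicate 2 was above WA replicate 1 by a ratio with an interval of 1.01 to 1.20. Vehicle replicates 2 and 3 differed by 1.96-fold (0.987 to 4.11), which is within counting error. For hsa-miR-199b-3p the corresponding ratios were 112, 6.28, 1.12 and 1.88, and the interval of the third, 0.985 to 1.27, spans 1. These intervals compare single libraries by CPM, take each read as a separate draw, cover counting error only and say nothing of the spread between cultures. The rows were chosen for their rise with WA, so the interval of a WA library over a vehicle library is no test of that rise.

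The rank of the rows among the 413 miRNAs moved with these levels. hsa-miR-199a-3p ranked 35 and 34 by reads in WA replicates 1 and 2, where it held 0.405% and 0.446% of the reads over these 413 miRNAs. Its rank was 194 in WA replicate 3, and 325 and 367 in vehicle replicates 2 and 3. hsa-miR-199b-3p ranked 49, 47 and 228 in WA replicates 1 to 3, and 356 and 380 in vehicle replicates 2 and 3. At the 156442 reads of the shallowest library, which is WA replicate 1, the level of hsa-miR-199a-3p in vehicle replicate 2 would correspond to 0.95 reads, and that in WA replicate 3 to 6.17 reads.

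On the log2(normalized value + 1) scale hsa-miR-199a-3p was at 1.84 ± 1.66 (SD, n = 3) with vehicle and at 10.02 ± 3.42 (SD, n = 3) with WA, which is 8.17 higher. hsa-miR-199b-3p was at 1.35 ± 1.23 (SD, n = 3) and 9.01 ± 3.40 (SD, n = 3), which is 7.66 higher. The median difference over the 327 miRNAs was -0.91. Both rows passed the filter of a normalized value of at least 10 in 3 libraries through the WA libraries alone, with 0 vehicle libraries at 10 or more, so a difference was built into their passing. Without WA replicate 3 the differences were 10.15 and 9.61, and without vehicle replicate 1 they were 7.25 and 6.98. Across the 6 libraries, fewer cells with the miRNA and less of it per cell cannot be told apart.

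The differences just below these 2 in the same ranking were 5.50 for hsa-miR-31-5p, 5.27 for hsa-miR-129-5p, 5.25 for hsa-miR-129-2-3p, 5.12 for hsa-miR-664a-5p and 4.75 for hsa-miR-181c-5p. hsa-miR-31-5p, known as a suppressor of metastasis in breast cancer cells, was at 33.9, 5.43 and 8.86 with vehicle and at 2777, 3005 and 23.3 with WA, so its WA replicate 3 lay inside the range of the vehicle libraries. The levels of hsa-miR-129-5p were 62.3, 6.85 and 13.4 against 2180, 2905 and 63.9, so its WA replicate 3 was level with the highest vehicle library. hsa-miR-664a-5p was at 0, 5.14 and 3.97 against 417, 57.2 and 51.8. Without the filter, hsa-miR-155-5p, an immune and inflammatory miRNA, was the 1 row with a larger difference, at 9.42. It was at 2.71, 0 and 1.22 with vehicle and at 26488, 24844 and 3.01 with WA, and failed the filter because WA replicate 3 was at its vehicle level.

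The reads were divided between the 2 rows in a like way in each library that had any. Of the reads listed in either row, hsa-miR-199a-3p held 67.2% in WA replicate 1 (exact Clopper-Pearson 95% interval 64.1 to 70.2), 66.9% in replicate 2 (65.4 to 68.4) and 66.7% in replicate 3 (57.9 to 74.6). In vehicle replicates 2 and 3 it held 65.9% (50.1 to 79.5) and 65.0% (40.8 to 84.6). The share was thus near 2 reads in 3 in each library with reads, while the CPM of hsa-miR-199a-3p in WA replicate 2 were 734-fold those in vehicle replicate 2. The shares of the 3 WA libraries differed by at most 0.531 percentage points, given with no test, since the way reads of a shared sequence were counted can set the split.

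The 2 rows are names for 1 sequence and are not independent measurements. With 2 of the 3 hairpins named miR-199a, a split by the number of hairpins would be 66.7%, near the share in all 5 libraries with reads. The intervals of the shares take each read as a separate draw between 2 names. Counting of a shared sequence need not work so, and the intervals do not test this split. The split was not exact: hsa-miR-199a-3p had 15 and 26 reads more than 2 times hsa-miR-199b-3p in WA replicates 1 and 2, a difference of 0 in WA replicate 3 and 1 read fewer in vehicle replicates 2 and 3. One other pair of names with a single mature sequence was found among the 368 rows that matched the RefSeq table, hsa-miR-365a-3p and hsa-miR-365b-3p, with 1 hairpin each. That pair held equal numbers of reads in all 6 libraries, namely 492, 170 and 96 with vehicle and 100, 246 and 523 with WA. The study does not say how reads that fit more than 1 name were counted, and whether a read was divided or entered more than 1 time was not tested. The rows give the level of the shared miR-199-3p sequence and not of either hairpin.

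**Figure D3:**
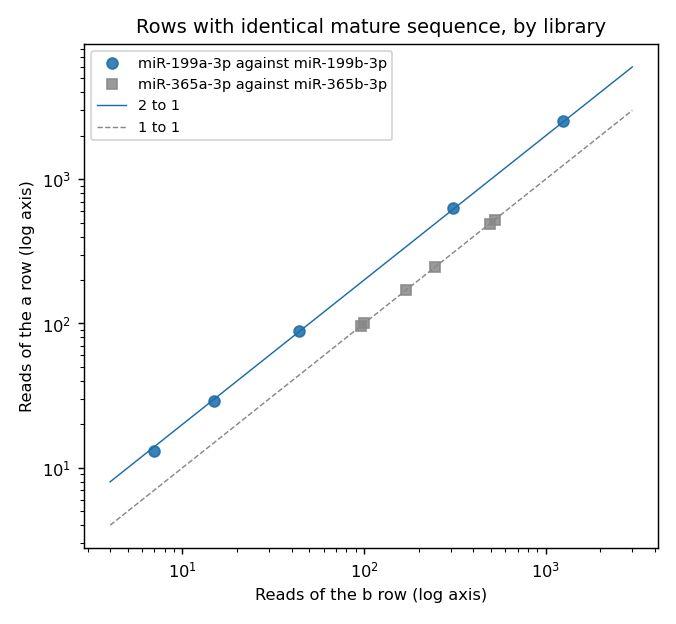
Reads of the a row against reads of the b row on log axes, 1 point per library with reads, for the miR-199-3p pair (circles) and the miR-365-3p pair (squares). The miR-199-3p points follow the line of 2 to 1, from 13 and 7 reads in vehicle replicate 3 to 2518 and 1246 in WA replicate 2, and the miR-365-3p points lie on the line of 1 to 1.

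The miRNAs whose pattern over the 6 libraries was most like that of hsa-miR-199a-3p were found by Pearson correlation on log2(normalized value + 1), given as a description over 6 points that share size factors and depth. hsa-miR-199b-3p shares the mature sequence and had a correlation of 0.999. Among the 325 other miRNAs that passed the filter, hsa-miR-1306-3p followed at 0.996, the let-7 family member hsa-let-7c-5p at 0.979, hsa-miR-130b-3p at 0.966, hsa-miR-186-5p at 0.953 and hsa-miR-152-3p, known to repress the DNA methyltransferase DNMT1, at 0.947. The median correlation over these 325 was -0.351, and 10 exceeded 0.9.

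The most similar miRNAs spanned smaller differences than the miR-199-3p rows. hsa-miR-1306-3p was at 6.77, 18.6 and 13.1 in vehicle replicates 1 to 3 and at 92.8, 103.6 and 27.8 in WA replicates 1 to 3. hsa-let-7c-5p was at 271, 1343 and 1097 against 9160, 12101 and 1926. hsa-miR-152-3p was at 98.9, 72.0 and 59.6 against 1270, 1522 and 385. In these miRNAs, as in the miR-199-3p rows, WA replicate 3 lay between the vehicle libraries and the other WA libraries, a placing found in 12 of the 325. In hsa-miR-186-5p, at 595, 2327 and 1548 against 11021, 10684 and 1598, WA replicate 3 lay within the vehicle range. The full order of the 6 libraries was the same as for hsa-miR-199a-3p in 3 of the 325, hsa-miR-1306-3p, hsa-let-7c-5p and hsa-miR-181c-5p. This order says nothing of distances. hsa-miR-181c-5p was at 0, 1.71 and 0.917 against 46.4, 48.2 and 42.8, with WA replicate 3 close to the other WA libraries, unlike in the miR-199-3p rows.

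**Figure D4:**
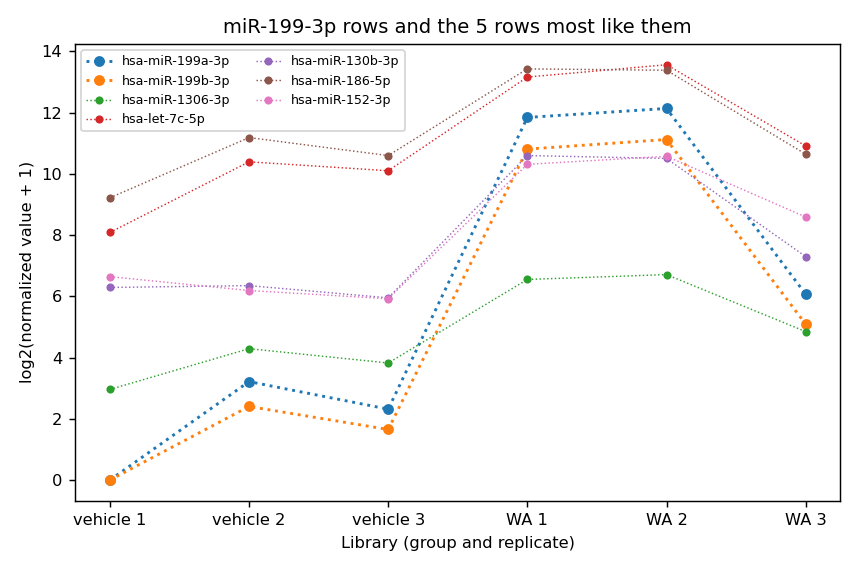
log2(normalized value + 1) of both miR-199-3p rows and of the 5 miRNAs most correlated with hsa-miR-199a-3p in each library, where dotted lines only join the points of 1 miRNA. WA replicates 1 and 2 are the highest libraries for all 7 miRNAs, and the miR-199-3p rows start lowest in the vehicle libraries.

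Because miR-199 marks mesenchymal cells, 44 miRNAs known as markers of cell types were followed in the same libraries, of which 20 had deposited values and 18 passed the filter. By limma with Benjamini-Hochberg adjustment over all 327 miRNAs, 0 of the 18 were higher in WA-treated cells and 0 were lower at an adjusted p under 0.05, where 0.306% of all tested miRNAs were higher and 5.2% were lower. At an unadjusted p under 0.05 the number was also 0 of the 18, where 86 of the 327 tested miRNAs passed. Without WA replicate 3, 10 of the 18 passed, 2 higher and 8 lower, in a fit in which 147 of the 327 miRNAs passed, 9.79% higher and 35.2% lower.

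Of 16 mesenchymal and stromal markers 4 had values. hsa-miR-143-3p, abundant in smooth muscle and fibroblasts, was at 16.3, 49.4 and 43.4 with vehicle and at 783, 1306 and 29.3 with WA. Its WA replicates 1 and 2 lay above the vehicle libraries as in the miR-199-3p rows, while WA replicate 3 lay among them (limma adjusted p = 0.237, and 0.00337 without WA replicate 3). hsa-miR-145-5p, from the same cluster as miR-143, did not pass the filter, with normalized values of 0, 0.571 and 1.53 with vehicle against 11.6, 21.4 and 4.51 with WA. Every WA library lay above every vehicle library, as in the miR-199-3p rows, but on few reads, 0, 2 and 5 against 2, 12 and 6. hsa-miR-140-5p and hsa-miR-140-3p, known from cartilage, had differences of 0.06 and 0.42 on the log2 scale (limma adjusted p = 0.968 and 0.624). The summed level of the 4 ran from 1560 to 2149 in the vehicle libraries and from 2570 to 3784 in the WA libraries. hsa-miR-140-3p made up most of it in every library, at 1844, 2323 and 2432 in WA replicates 1 to 3. The median difference of the 3 tested was 0.42, against -0.91 for all tested miRNAs.

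Of 7 epithelial markers 5 had values, and they set WA replicates 1 and 2, where the miR-199-3p rows were highest, apart from WA replicate 3. hsa-miR-200b-3p, of the miR-200 family that maintains epithelial identity, was at 1459, 65.4 and 63.9 in the vehicle libraries, listed at 0 in WA replicates 1 and 2, and at 642 in WA replicate 3. hsa-miR-200a-3p, hsa-miR-200c-3p and hsa-miR-429 were also listed at 0 in WA replicates 1 and 2 and lay at 386, 165 and 48.1 in WA replicate 3. Among all 413 miRNAs with deposited values, 166 and 146 were listed at 0 in WA replicates 1 and 2. The number was 52 in WA replicate 3, and 21, 3 and 2 in vehicle replicates 1 to 3. Listings at 0 in WA replicate 1 or 2 were thus not confined to epithelial markers. However, 4 of the 5 epithelial markers were at 0 in both, and the number of all miRNAs at 0 in both is not given here. A count of 0 allows normalized values of up to 17.4 and 5.36 in WA replicates 1 and 2, and the lower vehicle values of hsa-miR-429, 15.7 and 15.0, lie within the first of these limits. All vehicle values of hsa-miR-200a-3p, hsa-miR-200b-3p and hsa-miR-200c-3p lay above both limits. hsa-miR-203a-3p, a miRNA of keratinocytes, ran the other way, at 42.0, 12.0 and 26.6 against 800.0, 1006 and 1.5. Without WA replicate 3 the 4 miR-200 family members were lower and hsa-miR-203a-3p was higher, with limma adjusted p from 0.000869 to 0.0112. The median difference of the 5 over all libraries was -2.89, and the summed level ran from 204 to 1862 in the vehicle and from 800.0 to 1242 in the WA libraries.

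Markers of other cell types were low in WA replicates 1 and 2, where 166 and 146 of all 413 miRNAs with values were listed at 0. The 2 endothelial miRNAs, hsa-miR-126-3p and hsa-miR-126-5p, summed to between 225 and 1786 in the vehicle libraries, to 58.0 and 21.4 in WA replicates 1 and 2 and to 5910 in WA replicate 3, and their median difference was -2.04. Of 8 blood cell markers hsa-miR-486-5p alone had values, from 492 to 911 in the vehicle libraries, 0 and 5.36 in WA replicates 1 and 2 and 1223 in WA replicate 3. Of 4 liver and muscle markers, the liver miRNA hsa-miR-122-5p alone had values, none above 14.3. The part of these shifts in the miR-199-3p values was not tested.

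All 7 miRNAs taken as markers of a mesenchymal-like breast cancer line were present in every library. They summed to between 316060 and 608774 in the vehicle and between 373673 and 494999 in the WA libraries, with a median difference of -0.37. Of the 7, hsa-miR-146a-5p, which dampens NF-kappaB signalling, was the 1 with every WA library above every vehicle library, at 12584, 14221 and 7772 against 30030, 27574 and 36093 (limma adjusted p = 0.198). There WA replicate 3 was the highest library, unlike in the miR-199-3p rows. In hsa-miR-21-5p, an abundant oncogenic miRNA, WA replicate 3 was the lowest of all libraries, at 27029 where WA replicates 1 and 2 were at 277045 and 290979. hsa-miR-221-3p, hsa-miR-125b-5p and hsa-miR-138-5p were highest in WA replicate 3, at 169488, 146399 and 1074. hsa-miR-222-3p and hsa-miR-100-5p were higher in WA replicate 3, at 37450 and 77466, than in WA replicates 1 and 2, and lay within the range of the vehicle libraries.

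**Figure D5:**
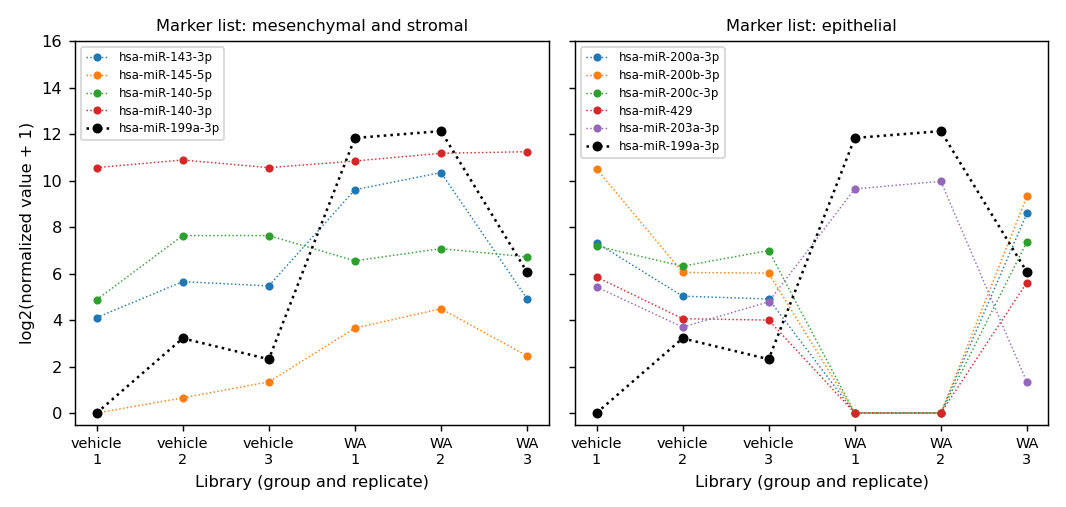
log2(normalized value + 1) of the mesenchymal and stromal markers (left) and the epithelial markers (right) in each library, with hsa-miR-199a-3p in black in both panels and dotted lines that only join the points of 1 miRNA. hsa-miR-143-3p and hsa-miR-203a-3p are high in WA replicates 1 and 2 with hsa-miR-199a-3p, and the 4 miR-200 family members are at 0 there.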

How the data were processed

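Small RNA was measured in MDA-MB-231 cells, with 3 libraries for vehicle and 3 for WA. The authors aligned trimmed reads to GRCh38.p10 with Bowtie, set aside those of other noncoding RNA classes and assigned the remainder to mature miRNAs. The deposited signal is the number of reads divided by the size factor that DESeq2 gave the authors for that library. Columns with the authors' own comparison, a fold change as a ratio and on the log2 scale with its p-value, were not used. Values were whole multiples of a step within 0.02 steps in 100% of cases, and CPM use the total over the 413 rows. The study gives 413 as the number of miRNAs expressed in both groups, and miRNAs it found in a single group are not among them.

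limma 3.58.1 in R 4.3.3 was run on log2(normalized value + 1) with a variance trend, unpaired and two-sided, over the 327 miRNAs at 10 or more in at least 3 libraries. A count model was not run, because few low values fix the step, since no library has more than 1 miRNA of a single step and those of 1 to 5 steps number 20 to 36. Reads, and the intervals from them, rest on taking 1 step as 1 read. The fit was tested on simulated data in which no library was set apart from its group, so that test does not cover this feature of the data. The p-values set the difference between the groups against the spread between these libraries within a group. Exact intervals used scipy 1.17.1. Intervals and limits cover counting error only. Sequences and hairpin positions are from RefSeq (GRCh38.p14), where 368 of the 413 rows matched, and gene annotation is from GENCODE for GRCh38.

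The members, marker lists and tests were chosen with earlier results of these data known. Besides the members, the text names the 5 next largest differences, the 5 most correlated miRNAs, miRNAs with the same seed, and markers with values. hsa-miR-155-5p and the hsa-miR-365 pair were chosen after their values were seen.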

Additional observations from a re-analysis of the deposited data

How the results depend on the processing

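Alternatives kept the 327 tested miRNAs unless they changed the filter. The difference of hsa-miR-199a-3p ran from 6.31 with a pseudocount of 10 to 9.42 with a pseudocount of 0.1, and that of hsa-miR-199b-3p from 5.54 to 9.0, so its size is partly set by the pseudocount. With 1 library left out they ran from 7.11 to 10.15 and from 6.6 to 9.61, the highest without WA replicate 3. Both stayed the 2 largest differences in each fit with the filter except without vehicle replicate 1, where they ranked 2 and 3. Upper-quartile scaling moved the median of all tested miRNAs from -0.91 to -1.73, with 7.49 and 6.99 for the 2 rows. Neither row is left when every library must reach a value of 10. The mean share of hsa-miR-199a-3p in the reads of both rows was 66.9% over the WA libraries, and 66.8% to 67.0% with 1 of them left out.

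By limma, 18 miRNAs had an adjusted p under 0.05. This number was 53 with no filter, 0 when every library had to reach 10 (29 at an unadjusted p under 0.05), and 7 with a pseudocount of either 0.1 or 10. With 1 library left out it ran from 0 to 147. Leaving out either of vehicle replicates 2 and 3, or either of WA replicates 1 and 2, gave 0, where 46 to 52 had an unadjusted p under 0.05, and 147 without WA replicate 3. With the replicate block it was 24. Deviations of same-numbered libraries had correlations of -0.069, 0.057 and -0.087, so the numbers were not taken as pairs, and not every library correlated best with its own number. The number of marker miRNAs past the threshold ran from 0 to 10 with 1 library left out, the highest without WA replicate 3, and was 0 in the other alternatives. The number of miRNAs with every WA library above every vehicle library, 25, was 72 without WA replicate 3, an alternative added after seeing the data. The cause of these changes was not tested. In vehicle replicate 1 a count of 0 allows up to 4.22 CPM, so its depth cannot tell its level from that of vehicle replicate 3.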
